A study of Mus musculus with 8 samples.

Results

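The transcripts of 10 chromatin regulators whose proteins are known partners or substrates of O-GlcNAc transferase (OGT) were followed in primary mouse myofibroblastic hepatic stellate cells (pMF-HSCs), and the OGT inhibitor OSMI-1 lowered 2 of them, Hcfc1 and Sin3a, a share near the 18.4% called over all genes tested. The 10 genes (Hcfc1, Tet1, Tet2, Tet3, Bap1, Asxl1, Asxl2, Sin3a, Ezh2 and Kansl1) were chosen by name, with earlier results of these data known, for the link of their proteins to OGT, and all 10 were found among the 40840 genes of the expression tables and among the 19963 genes tested. The stellate cells came from male wild-type C57BL/6J mice of 15 to 18 weeks, were sorted on retinol autofluorescence according to the methods of the study, and became myofibroblastic over 7 days on plastic. They then received DMSO (control, n = 4) or OSMI-1 at 50 µM (OGTi, n = 4) for 24 h. Each replicate number stands for 1 independent experiment with a control and an OGTi library, and 1 dose, 1 time and 1 inhibitor were examined.

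OGT adds a single sugar, N-acetylglucosamine, to serines and threonines of nuclear and cytosolic proteins, and OGA removes it. OGT has no DNA-binding part of its own and is brought to chromatin by other proteins. HCF-1, the product of Hcfc1, is a coregulator that OGT both glycosylates and cuts into its mature parts. The TET enzymes oxidise 5-methylcytosine, and TET2 and TET3 bind OGT. BAP1 is the deubiquitinase of histone H2A, works with ASXL1 or ASXL2 and binds HCF-1. SIN3A is the scaffold of a histone deacetylase complex that recruits OGT. EZH2 is the methyltransferase of PRC2 for histone H3 lysine 27, and KANSL1 is the scaffold of the NSL acetyltransferase complex, in which HCF-1 and OGT are also found.

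The promoters of Hcfc1 and Sin3a, which were both lower in OGTi, and of Ezh2, which holds an E2F-type motif, are printed to show the motif matches at their starts. Each is 300 bases of RefSeq sequence on the GRCm38.p6 build, from 250 bases before to 50 bases after an annotated start, on the strand of the gene. Capitals mark matches, on either strand, to the motifs searched. The Hcfc1 window is chrX:73966308-73966607 (minus strand), the Sin3a windows are chr9:57071790-57072089 and chr9:57076126-57076425 (plus strand), and the Ezh2 window is chr6:47594981-47595280 (minus strand).
Hcfc1: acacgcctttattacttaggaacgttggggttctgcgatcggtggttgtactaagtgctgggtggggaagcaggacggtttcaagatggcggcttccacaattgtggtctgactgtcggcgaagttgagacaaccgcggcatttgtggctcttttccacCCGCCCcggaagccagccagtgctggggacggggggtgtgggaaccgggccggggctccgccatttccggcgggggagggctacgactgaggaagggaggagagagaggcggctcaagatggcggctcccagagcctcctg
Sin3a, upstream start: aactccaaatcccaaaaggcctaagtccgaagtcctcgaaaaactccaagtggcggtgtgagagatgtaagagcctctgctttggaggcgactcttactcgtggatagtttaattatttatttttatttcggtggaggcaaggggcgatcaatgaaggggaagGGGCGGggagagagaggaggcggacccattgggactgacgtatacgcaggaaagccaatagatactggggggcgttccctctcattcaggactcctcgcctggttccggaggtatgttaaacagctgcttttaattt
Sin3a, downstream start: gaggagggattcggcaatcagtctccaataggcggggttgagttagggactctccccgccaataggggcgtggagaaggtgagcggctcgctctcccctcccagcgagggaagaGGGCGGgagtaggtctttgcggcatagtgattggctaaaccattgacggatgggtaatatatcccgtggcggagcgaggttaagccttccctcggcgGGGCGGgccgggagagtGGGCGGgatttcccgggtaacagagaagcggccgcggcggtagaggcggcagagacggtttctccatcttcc
Ezh2: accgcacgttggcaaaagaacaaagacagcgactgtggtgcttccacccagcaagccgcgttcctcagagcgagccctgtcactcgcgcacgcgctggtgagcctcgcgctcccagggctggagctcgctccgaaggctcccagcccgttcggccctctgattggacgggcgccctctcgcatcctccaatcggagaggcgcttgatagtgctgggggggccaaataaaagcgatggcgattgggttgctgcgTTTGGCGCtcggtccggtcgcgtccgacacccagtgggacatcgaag

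The motifs searched on both strands were TTTCCCGC, TTTGGCGC, TTTCGCGC and TTTGCCGC (E2F type), TTTGAA and TTCGAA (CHR type), GCATGCGC (NRF1), CACGTG (E-box), GGGCGG (GC box), CCGGAAGT (ETS) and CCCANNATG (part of the site of ZNF143 and THAP11). None of these motifs overlapped another in the windows printed. The GC box was present in at least 1 window of 9 of the 10 genes, all except Ezh2, and in 35.7% of 32851 promoters of the same length. It began 91 bases before the start of Hcfc1, 87 bases before the upstream Sin3a start, and 136, 39 and 22 bases before the downstream Sin3a start. Ezh2 was the single member with an E2F-type match, TTTGGCGC, which began 3 bases after its start and is found in 0.514% of all promoters. The E-box was found in Asxl2 and Bap1 (7.15% of all promoters), the ETS motif in Asxl2 (3.89%) and TTTGAA in Asxl1 (17.9%). The windows of the 10 genes numbered 13, since Sin3a has 2 and Kansl1 has 3, and their GC content ran from 50.0% to 81.3%, above the median of all promoters (52.7%) in 12 of 13. A match describes these letters only and is not evidence of binding.

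On the GRCm39 build of the expression tables, with positions from GENCODE vM39, Hcfc1 lies at chrX:72986388-73010953 and Sin3a at chr9:56979324-57037381. The other members lie at chr10:62640349-62744775 (Tet1), chr3:133169436-133250900 (Tet2), chr6:83339355-83436066 (Tet3), chr14:30973011-30984932 (Bap1), chr2:153187730-153245927 (Asxl1), chr12:3476787-3556869 (Asxl2), chr6:47507073-47572331 (Ezh2) and chr11:104224055-104360602 (Kansl1). Counts are sums over all exons of a gene, so no value is tied to a single exon.

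The libraries held 30068876 to 37372420 expected counts, the estimate of reads per gene that RSEM gives. Stellate and myofibroblast markers such as Acta2, Des and Lrat were present in every library, with a summed TPM (a transcript level adjusted for gene length and depth) of 4616 to 8309 in control and 3968 to 9072 in OGTi. Of these 10 markers, 3 fell in OGTi, among them Hgf (log2 fold change -2.13 ± 0.30, SE) and Lrat (-1.78 ± 0.28), while Acta2 did not pass the test (0.05 ± 0.25). Summed TPM was 0.620 to 1.23 in control and 0.280 to 0.780 in OGTi for endothelial markers, and 0.0600 to 0.590 and 0.520 to 1.67 for hepatocyte markers. Macrophage markers summed to 22.5 to 42.9 in control and 31.7 to 71.6 in OGTi, with Clec4f and Ptprc listed at 0 in some libraries and Cd68 as the 1 of 7 that rose (1.50 ± 0.21). Csf1r was present in every library, at 2.22 to 6.66 TPM. C1qb was at 0.1, 0, 6.22 and 3.96 TPM in control replicates 1 to 4 and at 0, 0.11, 2.39 and 1.47 in OGTi. C1qa was likewise highest in replicates 3 and 4, so these markers differed by replicate. Cholangiocyte markers summed to 87.3 to 140.6 and 57.2 to 84.1, with Sox9 higher (3.03 ± 0.63, called in 16 of 16 analyses) and Krt19 lower (-0.66 ± 0.20, called in 7 of 16). The endothelial marker Lyve1 fell (-3.17 ± 0.90, called in 10 of 16) and the hepatocyte marker Cyp2e1 rose (3.98 ± 0.76), both from low levels. The part of these markers in the results below was not tested. In bulk RNA, fewer cells of a type and less RNA per cell cannot be told apart.

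Across all genes, 3666 of 19963 were called changed by edgeR's quasi-likelihood test with the replicate as a block, at a Benjamini-Hochberg adjusted p no greater than 0.05, which is 18.4% of those tested, with 10.2% called lower. Scaling by library totals in place of TMM gave 1256 higher and 2911 lower, against 1623 higher and 2043 lower, and moved the all-gene median of the log2 fold change from 0.0053 to -0.19, while upper-quartile scaling moved it to 0.13. The 10 most abundant genes of a library held 10.9% to 15.8% of its counts in OGTi and 6.7% to 7.8% in control. The part of that in these shifts, and in the TPM values, was not tested. OGTi replicate 1 differed from the other OGTi libraries by transcript length. Its median log2 CPM deviation was 0.59 in the shortest of 5 length classes of genes and -0.47 in the longest, whereas the other 7 libraries stayed between -0.38 and 0.26 in those classes. OGTi replicate 4 stood apart in the number of genes detected, 23746 against 19035 to 20293 in the other 7 libraries. The 10 genes had a median transcript length of 7911 bases against 2859 for all genes tested, with Ezh2 (2687) and Bap1 (3324) the shortest. Of the 10, 6 had an effective length of at least 5000 bases. OGTi replicate 1 was the lowest OGTi library for 5 of the 10 genes (Bap1, Asxl1, Asxl2, Sin3a and Kansl1). The lowest was another library for Hcfc1 (9262 bases), Tet1 (10360), Tet2 (9288), Tet3 (11487) and Ezh2. Among the 3704 tested genes of at least 5000 bases in effective length, 11.4% were called lower.

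Of the 10 members, 2 were called, Hcfc1 and Sin3a, both lower, a share near the background of 18.4% over all genes. The log2 fold change was below 0 for 9 of 10 members (8 with upper-quartile scaling, 10 with library totals and 6 without replicate 1), with a median of -0.45, beside 0.0053 over all genes tested. That median was -0.18 without replicate 1, -0.27 with the length trend removed and -0.26 without the replicate block. Hcfc1 and Sin3a were also the 2 members in which every OGTi library lay below every control library, a pattern seen in 12.0% of all genes tested.

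Hcfc1 RNA fell to 45.2% of its control level. Its scaled counts (counts brought to a common library size with TMM factors) were 2604, 2508, 2857 and 3979 in control replicates 1 to 4, and 1518, 1547, 981 and 1353 in OGTi replicates 1 to 4. All 4 pairs went down, and the highest OGTi library stayed well under the lowest control library. Control libraries averaged 2987 ± 678 and OGTi libraries 1349.6 ± 260.1 (SD, n = 4), which gave a log2 fold change of -1.14 ± 0.24 (SE, edgeR adjusted p = 0.00847). The log2 ratios of the pairs were -0.78, -0.70, -1.54 and -1.56 for replicates 1 to 4, so the fall was deeper in replicates 3 and 4. Without replicate 3 the call was lost (-1.01, adjusted p = 0.0596), while the other 14 alternatives kept the gene past the threshold, with adjusted p from 0.000152 to 0.0477.

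Hcfc2, the close relative of Hcfc1, encodes a smaller HCF protein that lacks the repeats at which OGT cuts HCF-1. Its log2 fold change was -0.29 ± 0.22 and did not pass the test (edgeR adjusted p = 0.406). The TPM ratio of Hcfc1 to Hcfc2, which does not depend on how a library is scaled, was 0.564, 0.597, 0.634 and 0.748 in control replicates 1 to 4 and 0.530, 0.383, 0.211 and 0.333 in OGTi replicates 1 to 4. The ratio was lower in OGTi in every pair, by little in replicate 1, and it was chosen after the values had been seen. Since Hcfc1 (9262 bases) and Hcfc2 (2992) differ in length, it can carry the length difference of OGTi replicate 1.

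Sin3a RNA fell to 37.7% of its control level, the largest fall among the members other than Tet1. Its scaled counts were 726, 688, 656 and 1002 in control replicates 1 to 4 and 124, 309, 316 and 409 in OGTi replicates 1 to 4. Every pair went down, and OGTi replicate 1 was the lowest library by a wide margin. Means were 768 ± 159 and 289 ± 119 (SD, n = 4), giving a log2 fold change of -1.50 ± 0.29 (SE, edgeR adjusted p = 0.0064). Without replicate 1 the fall was -1.17 (adjusted p = 0.0118), and that of Hcfc1 was then larger, at -1.26. With the transcript length trend of each library removed the Sin3a value was -1.21 (0.00465). All 15 alternatives kept the Sin3a call, with adjusted p from 3.9e-05 to 0.0321.

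Sin3b, which encodes the alternative scaffold of the same complex, had a log2 fold change of 0.30 ± 0.20 (edgeR adjusted p = 0.348). The TPM ratio of Sin3a to Sin3b was 0.0504, 0.0378, 0.0584 and 0.0901 in control replicates 1 to 4 and 0.00494, 0.0184, 0.0240 and 0.0323 in OGTi replicates 1 to 4. Sin3b had the higher TPM of the 2 in all 8 libraries, and the ratio was lower in OGTi in all 4 pairs. The Sin3b TPM rests on a mean transcript length of 1693 bases, against 5092 for Sin3a. Which Sin3b isoforms it stands for, and whether they encode the whole scaffold, was not examined. With such unlike lengths the ratio can also carry the length difference of OGTi replicate 1.

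Ezh2 RNA was 62.1% of control without passing the test. Its scaled counts were 392, 428, 300.2 and 251 in control replicates 1 to 4 and 294, 231, 140.1 and 186 in OGTi replicates 1 to 4. Each pair went down, but OGTi replicate 1 stayed above control replicate 4, so the groups overlapped. The log2 fold change was -0.71 ± 0.24 (SE, edgeR adjusted p = 0.0731, unadjusted p = 0.0159). Of 15 alternatives, 4 placed it past the threshold. These were DESeq2 (adjusted p = 0.04996), scaling by library totals (0.031) and limma on log2 TPM with 1 or 0.1 added (0.0313 and 0.0267), and over the others the adjusted p ran up to 0.305. Of 20 proliferation genes, 19 fell, by as much as a log2 fold change of -3.46 ± 0.28 for the mitotic cyclin Ccnb1 and -3.31 ± 0.37 for the mitotic kinase Aurkb. The summed TPM of that list was 373 to 769 in control and 151 to 315 in OGTi, and its part in the Ezh2 values was not tested.

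Bap1 RNA stood close to control in 3 pairs and far below it in 1. Its scaled counts were 3722, 3791, 3309 and 3929 in control replicates 1 to 4 and 1172, 3600.3, 3232 and 3685 in OGTi replicates 1 to 4. The log2 ratios of the pairs were -1.67, -0.07, -0.03 and -0.09, so replicate 1 was the pair that stood apart. The log2 fold change was -0.45 ± 0.29 (SE, edgeR adjusted p = 0.327) and -0.07 without replicate 1 (adjusted p = 0.8292).

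Asxl1 and Asxl2, whose products activate BAP1, showed no called change. Asxl1 had scaled counts of 617, 473, 601 and 713 in control and 367, 695, 617 and 499.7 in OGTi, with 2 pairs lower and 2 higher (log2 fold change -0.17 ± 0.27, edgeR adjusted p = 0.720). Asxl2 had 1155, 711, 1103 and 1225 in control and 619.6, 1034, 1111 and 1190.0 in OGTi, also with 2 pairs lower (-0.09 ± 0.26, adjusted p = 0.851). The sign of both turned without replicate 1, to 0.03 for Asxl1 and 0.17 for Asxl2.

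Kansl1 had scaled counts of 1948, 1687, 1729 and 2081 in control replicates 1 to 4 and 879.7, 1721, 1956 and 1980.3 in OGTi replicates 1 to 4. The other OGTi libraries lay within the control range and replicate 1 lay below it, with a log2 pair ratio of -1.15. The log2 fold change was -0.25 ± 0.26 (SE, edgeR adjusted p = 0.569), and without replicate 1 it was 0.05.

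Among the TET dioxygenases, Tet3 carried most of the RNA and none was called. Tet3 had scaled counts of 449, 315, 399 and 586 in control replicates 1 to 4 and 462, 476, 364 and 693 in OGTi replicates 1 to 4, higher in 3 pairs (log2 fold change 0.19 ± 0.23, edgeR adjusted p = 0.634). That direction turned when libraries were scaled by totals (-0.0083) or analysed as TPM. Tet2 had 78.0, 68.6, 80.1 and 145 in control and 41.0, 33.5, 64.0 and 190 in OGTi, with replicate 4 the highest of each group (-0.45 ± 0.34, adjusted p = 0.403). Over the alternatives its value ran from -0.74 without replicate 4 to -0.16, with -0.18 without the replicate block, and none placed it past the threshold.

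Tet1 was at the edge of detection. Its expected counts were 1, 29, 42 and 8 in control replicates 1 to 4 and 2, 1, 3 and 9 in OGTi replicates 1 to 4. The 2 higher control values came from replicates 2 and 3, whereas in replicates 1 and 4 the OGTi library had the larger scaled count. The fitted log2 fold change was -1.75 ± 1.06 (SE, edgeR adjusted p = 0.294). The call was made in 1 of 14 alternatives, without replicates 1 and 4 (-3.81, adjusted p = 0.0421), a set chosen after seeing the data that keeps the pairs with the 2 higher control values.

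**Figure D1:**
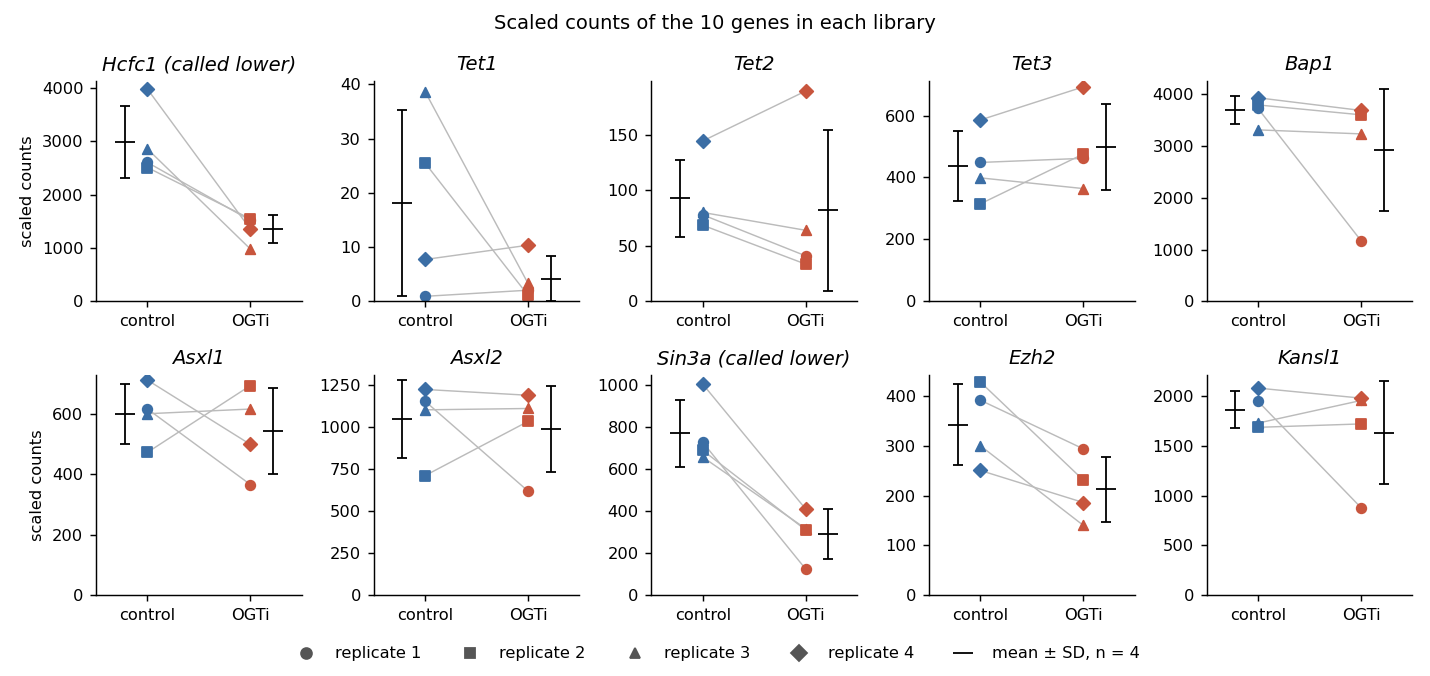
Scaled counts (counts over the TMM-adjusted library size) of each of the 10 genes in 4 control and 4 OGTi libraries, with grey lines joining libraries of the same replicate number, marker shapes for replicates and black bars for mean ± SD. In Hcfc1 and Sin3a the OGTi points lie below all control points, while in Bap1 and Kansl1 the OGTi libraries other than replicate 1 lie at or near the control range.

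**Figure D2:**
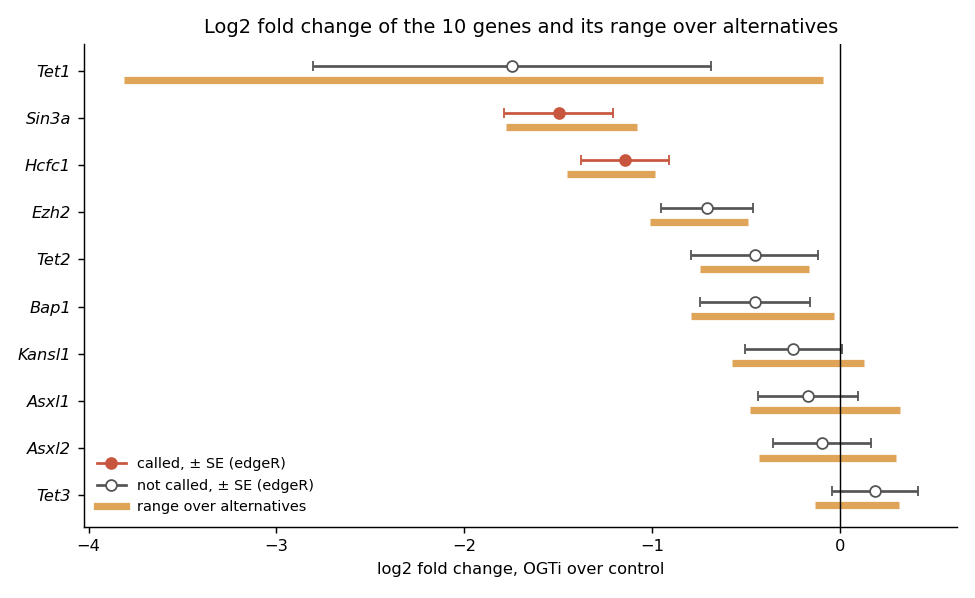
Log2 fold change of OGTi over control for the 10 genes with its standard error (points, filled where called by edgeR) and the range of that value over the alternative analyses (bars). The bars of Hcfc1 (-1.45 to -0.98) and Sin3a (-1.78 to -1.08) stay away from 0, and those of Tet3, Asxl1, Asxl2 and Kansl1 cross it.

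In control cells the TPM levels of the members spanned from Bap1, at 58.1 ± 3.64 (SD, n = 4), to Tet1, at 0.0825 ± 0.0814. Kansl1 (18.6 ± 1.87) and Hcfc1 (16.1 ± 3.76) followed Bap1 and overlapped each other. Sin3a (7.70 ± 1.61), Ezh2 (6.78 ± 1.52), Asxl1 (4.64 ± 0.854) and Asxl2 (4.54 ± 0.998) came next, each overlapping the next in order. Tet3 (1.89 ± 0.502), Tet2 (0.498 ± 0.191) and Tet1 were each apart from their neighbours. In OGTi the order began again with Bap1 (38.1 ± 17.7), Kansl1 (13.3 ± 4.91) and Hcfc1 (5.85 ± 1.43), whereas Sin3a (2.39 ± 1.09) stood at rank 7, after Asxl1 (3.45 ± 1.31), Asxl2 (3.44 ± 1.11) and Ezh2 (3.36 ± 0.936). From Bap1 down to Tet3 (1.74 ± 0.556) every neighbouring pair overlapped in OGTi, while Tet2 (0.355 ± 0.328) and Tet1 (0.0175 ± 0.015) did not reach the gene above them.

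**Figure D3:**
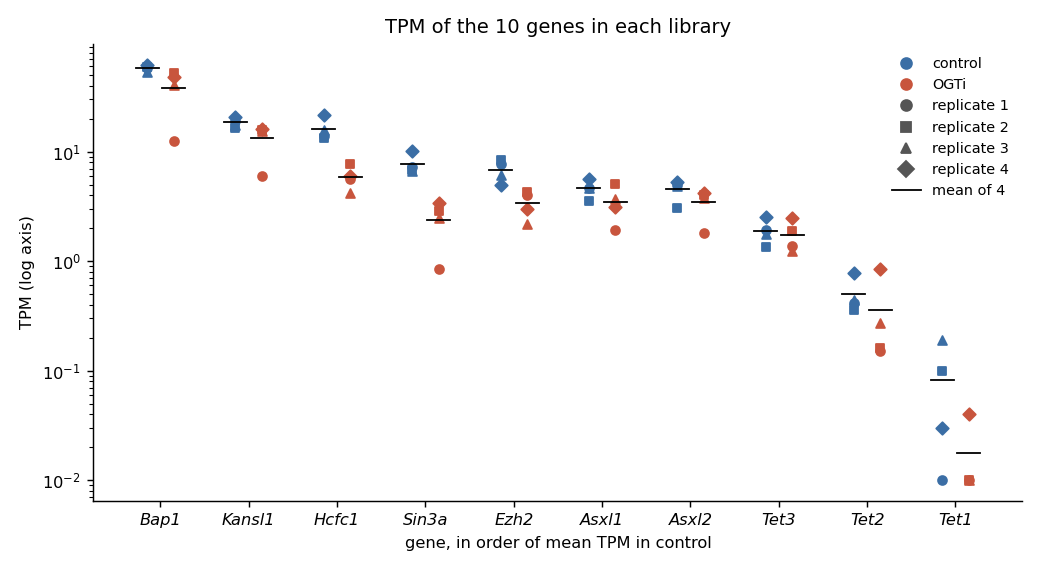
TPM of the 10 genes on a log axis in control (blue) and OGTi (red) libraries, in order of their mean in control, with marker shapes for replicates and black lines for means. Sin3a moves from rank 4 in control (mean 7.70) to rank 7 in OGTi (mean 2.39), and Tet1 lies at or below 0.19 in all libraries.

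To ask whether a family shifted from one member to another, the share of each paralogue in the summed TPM of its family was compared. A share does not depend on library scaling. It can still carry the length difference of OGTi replicate 1 where paralogues differ in length, as Ezh2 (2687 bases) and Ezh1 (4209) do. Tet3 held 76.5% ± 3.81 of the TPM of Tet1, Tet2 and Tet3 in control and 84.1% ± 8.24 in OGTi (SD, n = 4, exact two-sided permutation test over 70 splits, p = 0.229). The share of Tet2 was 19.8% ± 2.5 and 15.1% ± 7.96 (exact p = 0.314) and that of Tet1 3.71% ± 3.66 and 0.749% ± 0.31 (exact p = 0.257). Asxl1 held 50.8% ± 2.47 of Asxl1 and Asxl2 in control and 49.9% ± 5.34 in OGTi (exact p = 0.8286), an even division in both groups. Ezh2 held 33.2% ± 8.69 of Ezh1 and Ezh2 in control and 22.3% ± 13.7 in OGTi (exact p = 0.229), and its OGTi values were 42.2%, 17.1%, 10.7% and 19.2% in replicates 1 to 4. Ezh1, the PRC2 methyltransferase that prevails in non-dividing cells, was thus the more abundant of the pair in all 8 libraries, and OGTi replicate 1 stood apart from the other OGTi libraries with the highest share of Ezh2. After adjustment over the 5 shares, p was 0.393 to 0.8286, with 0.0286 the smallest p the test can give before adjustment.

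**Figure D4:**
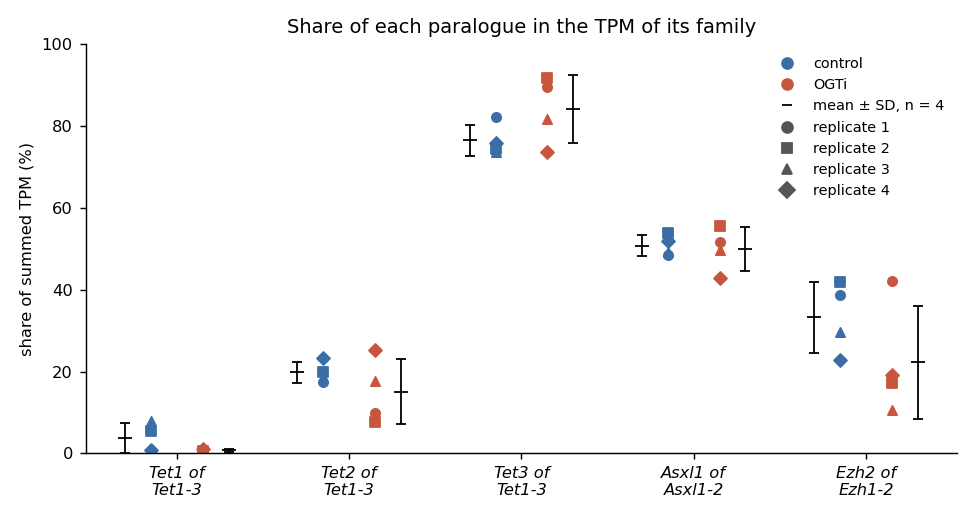
Share of each paralogue in the summed TPM of its family, in percent, in control (blue) and OGTi (red) libraries, with marker shapes for replicates and black bars for mean ± SD. The OGTi points spread more widely than the control points for Tet2, Tet3, Asxl1 and Ezh2, and the ranges of the groups overlap for all 5 shares.

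The mean length of the transcripts counted for a gene, which RSEM weights by the abundance of each isoform, was used to look for a change of isoform. All 10 members have more than 1 transcript listed, from 3 for Bap1 to 30 for Ezh2. Sin3a measured 5092 ± 3.97 bases in control and 5091 ± 10.1 in OGTi (SD, n = 4), and Hcfc1 9265 ± 7.59 and 9258 ± 10.9. The difference was -0.45 bases for Sin3a (exact permutation p = 0.857). For Hcfc1 it was -7.63 (exact permutation p = 0.314), about the SD of its control libraries. The smallest p values were those of Asxl2, from 11508 ± 96.7 to 11659 ± 74.4 bases (exact permutation p = 0.0571, adjusted p = 0.429 over 10 genes), and for Kansl1, from 5115 ± 3.64 to 5121 ± 4.28 (exact p = 0.0857, adjusted p = 0.429). No member passed 0.05 before or after adjustment in this exact test.

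The lists around the 10 proteins held 95 tested genes, called partner genes here. Besides subunits and binding partners they take in Ogt and Oga and the ubiquitin ligase PRC1. They also take in H3K27 demethylases and genes of DNA methylation and base excision. Of the 95, 2 rose and 8 fell (10.5% called, against 18.4% of all genes). With library totals 1 rose and 19 fell, which is 21.1% called against 20.9% of all genes, so the share under the background held with TMM and not with that scaling. The log2 fold change of these genes under TMM had a median of -0.16 (-0.06 with upper-quartile scaling, -0.35 with library totals). Neither Ogt (4355 ± 587 scaled counts in control, 4137 ± 1557 in OGTi, log2 fold change -0.16 ± 0.24, edgeR adjusted p = 0.714) nor Oga (703 ± 59.9 and 475 ± 182, -0.65 ± 0.30, adjusted p = 0.166) passed the test. OSMI-1 acts on the OGT enzyme, and the activity of the enzyme was not measured in these RNA data.

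Among 11 relatives and DNA-bound partners of HCF-1, such as Thap11, Zfp143, Gabpa, Yy1 and E2f1, none was called by edgeR or by DESeq2, 1 was called by limma on TPM, and 1 had an unadjusted p under 0.05. In the SET1 complex, which methylates histone H3 lysine 4 and which HCF-1 can tether, 1 of 9 genes rose and 1 fell. Ash2l, a core subunit, rose from 394 ± 55.3 to 859 ± 197 scaled counts (log2 fold change 1.11 ± 0.26, edgeR adjusted p = 0.0143). Bod1l fell from 1519.9 ± 149 to 792 ± 172 (-0.96 ± 0.23, adjusted p = 0.0182). Both had 4 of 4 pairs in that direction, and their calls held in 12 and 13 of 16 analyses.

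The DNA methylation and base excision list around the TET enzymes had the lowest median (-0.71) of the partner lists, with 3 of 12 genes lower and 1 higher. Dnmt1, the maintenance methyltransferase, fell from 1321 ± 177 to 249 ± 154 scaled counts (log2 fold change -2.58 ± 0.33, edgeR adjusted p = 0.000876). Uhrf1, which brings DNMT1 to hemimethylated DNA, fell from 1277 ± 331 to 222 ± 198 (-2.84 ± 0.36, adjusted p = 0.000846). Its relative Uhrf2, a reader of 5-hydroxymethylcytosine, rose from 296 ± 58.2 to 503 ± 105 (0.76 ± 0.22, adjusted p = 0.0343, called in 8 of 16 analyses). Dnmt3a, a de novo methyltransferase, had a value of -0.19 ± 0.21 and was not called. Dnmt1 and Uhrf1 RNA is known to be highest in cycling cells, and 19 of 20 proliferation genes fell in the same libraries. The part of that in these values was not tested.

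Around BAP1, none of 6 partners of the deubiquitinase complex (Asxl3, Foxk1, Foxk2, Mbd5, Mbd6 and Kdm1b) was called by edgeR, DESeq2 or limma on TPM, and none had an unadjusted p under 0.05. Of 18 genes of PRC1, the ubiquitin ligase that places the mark BAP1 removes, 2 fell. Cbx2, a chromodomain subunit, went from 171 ± 105 to 54.8 ± 35.5 scaled counts (log2 fold change -1.67 ± 0.39, edgeR adjusted p = 0.0146), and Yaf2 from 1608 ± 72.3 to 952 ± 175 (-0.77 ± 0.21, adjusted p = 0.0297). Each was called in 11 of 16 analyses.

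In the SIN3 complex, 1 of 20 other genes fell and none rose, with a median log2 fold change of 0.16 that turned to -0.04 with library totals. Sinhcaf, a subunit that takes part in SIN3A complexes, fell from 1851 ± 243 to 632 ± 246 scaled counts (-1.62 ± 0.28, edgeR adjusted p = 0.00349), a change of the same order as that of Sin3a itself, and was called in 16 of 16 analyses. The catalytic deacetylases Hdac1 (-0.16 ± 0.21) and Hdac2 (0.34 ± 0.26) were not called. Of 13 tested PRC2 and H3K27 demethylase genes, none was called by edgeR, 4 had an unadjusted p under 0.05, and DESeq2 and limma on TPM each called 2. The PRC2 core subunits other than Ezh2 had log2 fold changes of -0.03 ± 0.22 for Eed, 0.11 ± 0.24 for Suz12, -0.28 ± 0.23 for Rbbp4 and -0.49 ± 0.18 for Rbbp7 (edgeR adjusted p = 0.0882, lower in 4 of 4 pairs and called in 3 of 16 analyses). In the NSL complex of KANSL1, 1 of 7 other genes fell. Mcrs1 went from 2434 ± 239 to 662 ± 121 scaled counts (-1.89 ± 0.23, edgeR adjusted p = 0.000696), with its libraries at 70.9, 61.6, 70.1 and 79.3 TPM in control and 14.9, 20.7, 12.7 and 13.2 TPM in OGTi. The catalytic subunit Kat8 had a value of 0.55 ± 0.21 and was not called.

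**Figure D5:**
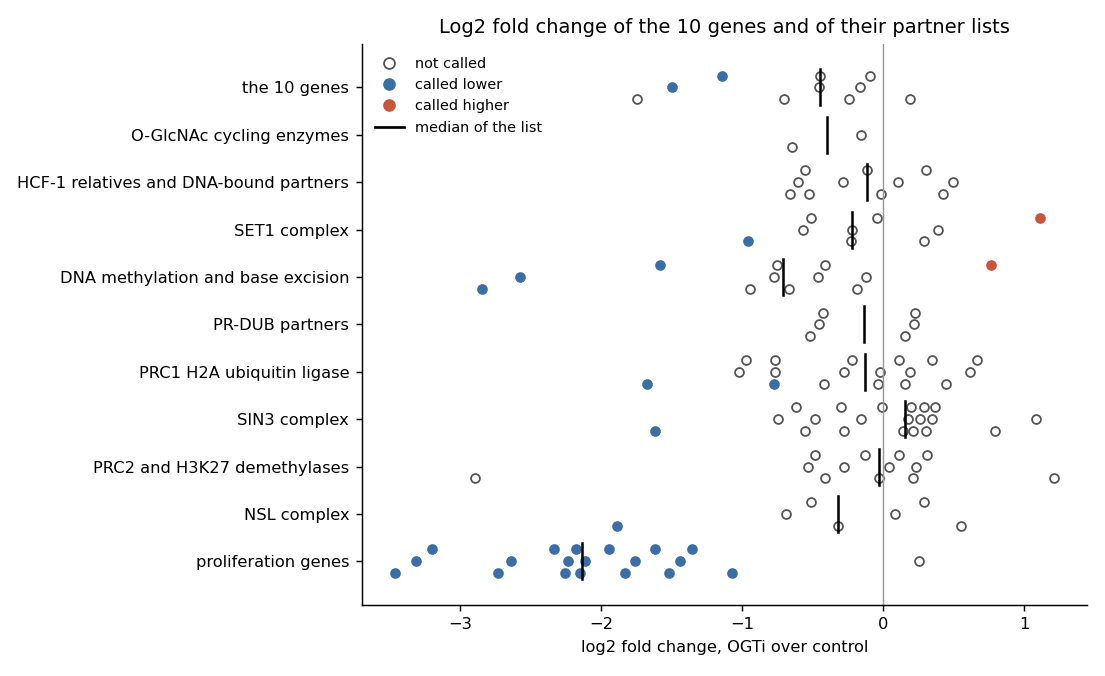
Log2 fold change of OGTi over control for the 10 genes and for the genes of each list of partners, as open points where not called and filled points where called lower (blue) or higher (red) by edgeR, with black lines at list medians. Called genes are few in the partner lists (2 higher and 8 lower of 95) and make up 19 of 20 in the proliferation list.

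The genes whose log2 CPM followed Hcfc1 most closely over the 8 libraries were Txnip (Pearson r = 0.984), Cdc42ep5 (0.983) and Psme2b (0.980), out of 12524 genes with a mean of at least 1 CPM. Those closest to Sin3a were Unkl, Pdcl and Lancl2 (r = 0.985 each). All 6 were themselves lower in OGTi, and the libraries they share include that difference between groups, so r is given as a description. Psme2b is a near copy of Psme2 and its counts are uncertain. Hcfc1 and Sin3a had an r of 0.757 with each other.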

How the data were processed

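Polyadenylated RNA was sequenced from 8 pMF-HSC libraries, 4 control and 4 OGTi, grouped by sample title. According to the labels and methods, the authors made stranded paired-end libraries, aligned reads to mm39 with Bowtie2 2.3.5.1 and deposited RSEM 1.3.1 expected counts, TPM and mean transcript lengths for each library. The submitters' notes also name DESeq2 1.36.0, and a deposited table of that comparison was not used. Of per-sample columns without a sample there were 0.

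Expected counts were rounded and tested with edgeR 4.0.16 in R 4.3.3 (TMM, glmQLFit, glmQLFTest, genes with at least 10 counts in total, replicate as a block, Benjamini-Hochberg adjustment over all genes tested). Standard errors are the log2 fold change over the root of F. The study's methods pair the samples of 1 experiment. Deviations of same-numbered libraries had an r of 0.160, 0.224, 0.105 and 0.318 across genes, which are not independent. For different numbers r was -0.312 to 0.208, so only replicates 2 and 4 lay above that range. Shares and lengths were compared by exact permutation of samples (scipy 1.17.1). Alternatives used DESeq2 1.42.0, limma 3.58.1, other scalings and filters, and libraries left out. The members and lists were chosen with earlier results of these data known. All members, Ogt and Oga were named, and of each other list up to 2 called genes with the largest rise and 2 with the largest fall, plus the 3 genes most like each called member. Other genes in the text (Hcfc2, Sin3b, Ezh1, core and catalytic subunits, genes listed as examples) were named after their values were seen. Motifs were matched in RefSeq promoters. Depth was 30068876 to 37372420 counts per library, and Tet1, with 1 to 42 counts in a library, was the member with the fewest. The edgeR procedure was tested on simulated data.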

Additional observations from a re-analysis of the deposited data

Results flagged for a closer look

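In 1 of the 20 sets of 4 libraries examined (10 genes in 2 groups), 1 library stood apart from the other 3 by Dixon's test, where chance gives about 1 in 20. It was Tet2 in control replicate 4, with 145 scaled counts against 68.6 to 80.1 in the other control libraries. The OGTi library of the same replicate was also the highest of its group for Tet2, at 190 scaled counts.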

How the results depend on the processing

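Over 15 alternatives, Sin3a kept its direction and call in 15 and Hcfc1 in 14, and relative to the median of all genes both kept their direction under every scaling. The replicate block changed no member's call (without it Hcfc1 was at -1.15, Sin3a at -1.41 and 2991 genes were called). The GC correction and the set without replicates 1 and 4 were chosen after seeing the data. That set leaves out the OGTi libraries that stood apart by transcript length (replicate 1) and by genes detected (replicate 4).

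Leaving out 1 replicate gave 1905 to 3124 changed genes (843 to 1433 higher, 1062 to 1744 lower) and 1 to 2 members, with log2 fold changes of -1.27 to -0.99 for Hcfc1, -0.38 to 0.028 for Asxl1, -0.28 to 0.17 for Asxl2, -0.39 to 0.047 for Kansl1 and -0.37 to 0.086 for Ogt. It moved uncalled values by over 1.5 times, to -2.76 to -0.84 for Tet1, -0.74 to -0.24 for Tet2, 0.08 to 0.29 for Tet3, -0.60 to -0.07 for Bap1 and -0.88 to -0.31 for Oga. The lowest counts of changed genes came without replicate 3 (1905) and without replicate 4 (1956), beside 3124 without replicate 1 and 3078 without replicate 2. Each of these sets has fewer libraries than the main fit. The OGTi minus control difference was -2.20 to 1.85 percentage points for the Asxl1 share, -15.8 to -6.40 for Ezh2, -6.87 to -2.14 for Tet2, 4.397 to 10.9 for Tet3, -4.05 to -1.51 for Tet1 and, for mean transcript length in bases, -13.2 to -3.16 for Hcfc1, -2230.5 to -260.4 for Tet1, 3.48 to 8.63 for Kansl1, -7.26 to 7.09 for Tet3, -2.46 to 0.09 for Bap1, -77.1 to 76.7 for Asxl1, -3.16 to 2.10 for Sin3a and -12.5 to 0.973 for Ezh2. Exact sign flips of the 4 pairs cannot pass the threshold and made no call.

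Without replicates 1 and 4, 2177 genes changed (991 higher, 1186 lower), Tet1 was called at -3.81 (adjusted p = 0.0421), and the values were 0.32 for Asxl1, 0.30 for Asxl2, 0.13 for Kansl1 and 0.26 for Ogt. limma on log2 TPM with 1 or 0.1 added called 3456 and 3473 genes lower, gave Tet3 -0.084 and -0.13, and placed Ezh2 past the threshold at -0.84 and -1.01, as did DESeq2 (-0.66) and library totals (-0.90). Tet3 was -0.0083 with library totals. Asxl2 was 0.030 with upper-quartile scaling and 0.10 with GC corrected. With the length trend removed Asxl1 was 0.086, Kansl1 0.040 and Ogt 0.13, and with GC corrected Ogt was 0.090. Members called numbered 3 in place of 2 under DESeq2, library totals, limma and without replicates 1 and 4. Of the partner genes, 0 to 4 rose and 6 to 19 fell over all alternatives, against 2 and 8. The cause of these shifts was not tested. Of the members, Tet1 had the lowest depth, at 1 to 42 counts per library.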
